A study of Mus musculus with 8 samples.

Results

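Autophagy is the route by which a cell encloses part of its own contents in a membrane, the autophagosome, and delivers it to the lysosome for breakdown. The 10 genes described here cover its main steps: the cargo receptors Sqstm1 and Nbr1, the LC3 and GABARAP proteins Map1lc3a, Map1lc3b, Gabarap, Gabarapl1 and Gabarapl2, the starting kinase Ulk1, the membrane effector Wipi1 and the transcription factor Tfeb. They were listed by name, with earlier results of these data known, and are 10 of 47069 gene rows in each deposited table. All 10 passed the filter on low counts and are among 14263 genes tested.

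Their RNA was measured in mouse acute myeloid leukaemia cells transformed by MLL-AF9, a fusion oncogene. The cells carried TetO-Klf4, a transgene that doxycycline switches on to make KLF4, a zinc finger transcription factor, and GFP-positive cells were sorted from leukaemic mice. The tissue is given as bone marrow and the strain as C57BL/7. Bulk RNA-seq libraries fell into the time points 0h, 6h, 12h and 24h, with 2 replicates each. Every group carried the transgene, and 0h was the control of each comparison. The sources used here do not name the event at 0h, the cells that express the transgene's activator, or whether the 2 replicates of a time came from separate mice. P-values therefore rest on how far the libraries of a time lie apart, and that distance may be technical. The test takes most of each gene's spread from all genes tested, not from its own replicates alone. Cells treated with doxycycline but lacking the transgene were not analysed here, so KLF4, doxycycline and time itself cannot be told apart.

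Gene counts per library ran from 20394546 to 26041347, at which 3 counts are worth 0.115 to 0.147 CPM (counts scaled to a common library total). Klf4 was at 2.71 and 4.42 CPM at 0h, 152 and 151 CPM at 6h, 115 and 111 CPM at 12h, and 76.9 and 78.8 CPM at 24h. All 8 markers of the leukaemia cells were detected, with a summed level of 1451 to 1574 CPM over the libraries. At 24h 3 of the 8 were called higher and 3 lower, beside 26.1% and 24.8% of all genes tested. From 0h to 24h the mean went down for Cd34, a progenitor marker (243 to 116 CPM), Meis1 (125 to 105), Kit (99.2 to 84.5) and Spi1 (252 to 239). It went up for Itgam, a myeloid marker (49.4 to 63.6 CPM), Hoxa9 (413 to 449), Mpo (38.4 to 43.8) and Ptprc (341 to 352). Of markers of other cells, Cd3e and Cd3g (T cells), Ms4a1 and Pax5 (B cells), C1qa, C1qc and Marco (macrophages) and Kdr (endothelium) had 0 counts in every library. The 8 T cell markers summed to 5.49 to 9.58 CPM, nearly all of it Lck, and the 7 erythroid markers to 1.91 to 3.24 CPM. Of other B cell markers, Cd79b went from a mean of 11.4 CPM at 0h to 7.74 CPM at 24h and Ighm from 12.2 to 7.14 CPM. Cd79a went the other way, from 0.216 to 0.821 CPM. The 7 macrophage markers summed to 65.4 to 70.6 CPM at 0h and 40.7 to 44.3 CPM at 24h, mostly Adgre1, and the 7 stroma and endothelium markers to 182.7 to 186.9 and 139.4 to 145.1 CPM, mostly Pecam1. Fragments assigned to no gene took 5.47% ± 0.32 (SD, n = 2) of the total at 0h and 9.15% ± 0.17 (SD, n = 2) at 24h. The part of these shifts in the changes described here was not tested. In bulk RNA, fewer cells of a kind and less RNA per cell cannot be told apart.

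ULK1 is the kinase that starts an autophagosome. A complex with the lipid kinase PIK3C3 then marks the membrane with the phosphoinositide PI3P, which WIPI proteins bind to bring in the machinery that attaches LC3 and GABARAP proteins to the membrane's lipid. SQSTM1, also called p62, and NBR1 bind ubiquitin on cargo and LC3 on the membrane, and are themselves degraded with the cargo. TFEB switches on genes of autophagy and lysosomes, the CLEAR network, and is held in the cytoplasm while the nutrient kinase mTORC1 phosphorylates it. Only RNA was measured, so the lipid attachment of LC3, the amount of SQSTM1 protein and the turnover of autophagosomes are not known from these data.

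KLF4 is known to bind CACCC and GC-rich sequences, so promoters are shown for 2 members that rose, Wipi1 and Ulk1, and 2 that fell, Sqstm1 and Gabarapl1. They were picked after their values were seen, from members with 1 window in the reference. Tfeb, which rose more than Ulk1, has 3 windows and is not printed. Windows of 250 bases before to 50 after a transcript's start were found in the RefSeq promoter table (GRCm38.p6) for 9 of 10 genes, 12 windows in all, with no entry for Map1lc3a. Only the 250 bases before the start are printed, 5′ to 3′ on the gene's strand. The starts are those of RefSeq. For Wipi1 the window lies wholly inside the gene as placed by GENCODE M21, the source of gene coordinates here (chr11:109573331-109611967). Capitals mark the CACCC box CCACCC, which reads GGGTGG on the other strand, and the GC box CCGCCC, which reads GGGCGG there.
Wipi1, chr11:109611390-109611639, minus strand: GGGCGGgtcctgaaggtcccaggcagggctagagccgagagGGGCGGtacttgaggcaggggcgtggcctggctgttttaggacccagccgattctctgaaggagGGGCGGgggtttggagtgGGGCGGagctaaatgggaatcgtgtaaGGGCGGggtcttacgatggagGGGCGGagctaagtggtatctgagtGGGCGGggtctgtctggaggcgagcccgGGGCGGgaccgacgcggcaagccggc
Ulk1, chr5:110810082-110810331, minus strand: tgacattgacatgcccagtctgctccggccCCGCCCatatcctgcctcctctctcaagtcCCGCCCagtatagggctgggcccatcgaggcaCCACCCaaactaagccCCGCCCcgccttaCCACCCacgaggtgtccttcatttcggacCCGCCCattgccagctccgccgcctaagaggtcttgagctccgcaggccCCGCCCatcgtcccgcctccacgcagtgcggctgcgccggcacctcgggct
Sqstm1, chr11:50210821-50211070, minus strand: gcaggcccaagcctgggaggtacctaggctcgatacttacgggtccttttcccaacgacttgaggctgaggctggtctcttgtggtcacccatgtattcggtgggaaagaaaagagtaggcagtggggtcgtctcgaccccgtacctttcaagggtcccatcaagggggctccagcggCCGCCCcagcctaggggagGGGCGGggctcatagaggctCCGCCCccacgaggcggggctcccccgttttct
Gabarapl1, chr6:129532942-129533191, plus strand: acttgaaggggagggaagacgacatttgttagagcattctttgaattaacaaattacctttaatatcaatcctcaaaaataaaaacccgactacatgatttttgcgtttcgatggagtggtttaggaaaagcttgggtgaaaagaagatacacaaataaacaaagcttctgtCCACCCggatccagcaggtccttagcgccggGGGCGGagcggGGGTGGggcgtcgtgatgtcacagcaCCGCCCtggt

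Over the full windows of 300 bases, CCACCC occurred 2 times for Ulk1, 3 times for Gabarapl1 and 1 time for Map1lc3b and for 1 of 2 Nbr1 windows. It was found in none of the windows of Wipi1, Sqstm1, Gabarap or Gabarapl2, nor in the 3 of Tfeb. At least 1 match stood in 31.5% of all 32851 promoters of that length. CCGCCC occurred 9 times for Wipi1, whose window lies inside the gene in GENCODE, 5 times for Ulk1, 3 times for Sqstm1 and 2 times for Gabarapl1. Counts of at least 9, 5, 3 and 2 were reached by 0.12%, 2.7%, 10.7% and 19.5% of promoters, and 35.7% held at least 1. These shares are over promoters of any GC content. The windows of Wipi1, Ulk1, Sqstm1 and Gabarapl1 held 69.0%, 68.0%, 63.3% and 46.3% GC, and the part of GC content in the counts was not tested. The 3 windows of Tfeb, which rose, held CCGCCC 2, 1 and 1 times, and that of Gabarapl2, not called, 2 times. It occurred 1 time for Map1lc3b and for 1 of 2 Nbr1 windows, and 0 times for Gabarap, which fell. Both a member that rose and one that fell thus held CCACCC. The E-box CACGTG, the core of the sequence TFEB binds, was in none of the 12 windows and in 7.15% of all promoters. TGACNNNGC (GCNNNGTCA on the other strand), the core of the antioxidant response element that NRF2 binds, was found 1 time, for Map1lc3b, and in 12.4% of all promoters. The motifs were searched on both strands and their letters overlap in no printed window. A match is a description of the letters and not a binding site.

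At 24h, Wipi1, Tfeb and Ulk1 were higher than at 0h, by 1.52-fold, 1.65-fold and 1.25-fold, and Gabarapl1, Sqstm1 and Gabarap were lower, by 1.42-fold, 1.24-fold and 1.14-fold. Map1lc3a, Map1lc3b, Gabarapl2 and Nbr1 did not pass the test. A gene was called at an adjusted p under 0.05 in edgeR's quasi-likelihood test. At 6h the same test called 3 of 10 genes higher and 3 lower, against a background of 18.3% of all genes tested, 9.74% higher and 8.58% lower. At 12h it called 3 higher and 2 lower, and the background was 43.7%, 22.1% higher and 21.6% lower. At 24h it called 3 higher and 3 lower, beside 50.9% of all genes, 26.1% higher and 24.8% lower. The counts of 5 and 6 of 10 at 12h and 24h are therefore close to what all genes show. The 3 comparisons share the 0h libraries. The 10 genes had a median log2 fold change of 0.0, -0.04 and -0.11 at 6h, 12h and 24h, where all genes had -0.0036, 0.0018 and 0.0173. Replicates of the 2 times did not overlap for 6, 7 and 8 of the 10 genes, beside 56.3%, 71.2% and 74.9% of all genes.

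**Figure D1:**
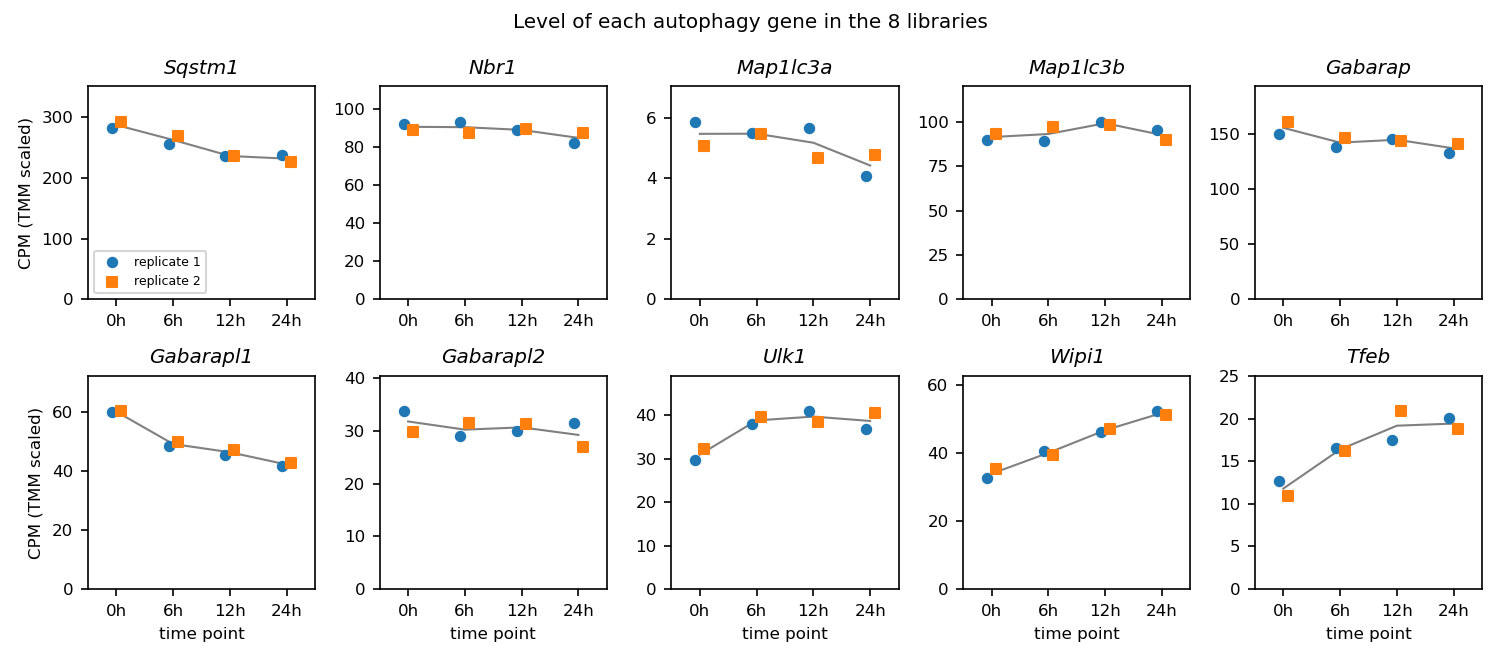
Level of each of the 10 genes in CPM scaled by TMM (trimmed mean of M-values), on an axis from 0, at 4 time points, with points for replicates 1 and 2 and a line through their mean. Wipi1 runs from 32.7 to 52.4 CPM and Gabarapl1 from 60.3 down to 41.8 CPM, while Nbr1 and Map1lc3b stay near their 0h level.

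The changes were small. Against a fold of 1.5, edgeR's test called none of the 10 genes at any time, with 0, 1 and 1 of them at an unadjusted p under 0.05 at 6h, 12h and 24h. The background of that test was 1.49%, 4.21% and 6.68% of all genes. Median absolute log2 fold changes over all genes were 0.13, 0.21 and 0.25 at these times. Between 12h and 6h the libraries of 5 genes did not overlap, beside 58.3% of all genes, and 1 of 10 genes was called higher (Wipi1) and 1 lower (Sqstm1), beside 20.7% of all genes, 10.9% higher and 9.79% lower, and 0.596% against a fold of 1.5. Between 24h and 12h edgeR called 0 of 10, with 2 at an unadjusted p under 0.05, and DESeq2 called 0 with 0 at an unadjusted p under 0.05. Of all genes 6.46% were called between those times, 3.41% higher and 3.04% lower, and 0.287% against a fold of 1.5. The libraries of 5 of the 10 genes did not overlap between them, beside 49.2% of all genes. In the test over the whole time course, 52.8% of all genes and 6 of the 10 (Wipi1, Gabarapl1, Sqstm1, Tfeb, Ulk1 and Gabarap) were called, with F from 37.4 for Wipi1 down to 5.64 for Gabarap.

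**Figure D2:**
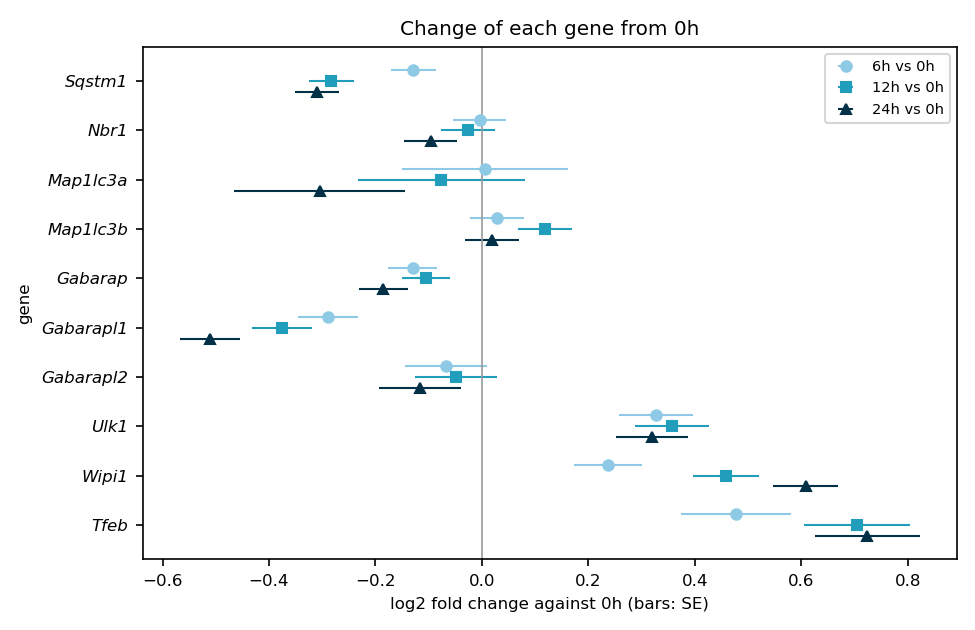
Log2 fold change of each gene against 0h at 6h, 12h and 24h, with bars for the standard error of the edgeR fit. Tfeb reaches 0.72 and Gabarapl1 -0.51 at 24h, and the 4 genes that were not called lie between -0.31 and 0.12 at all 3 times.

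Among the cargo receptors, Sqstm1 fell and Nbr1 was not called. Sqstm1 (ENSMUSG00000015837, chr11:50199366-50210827, minus strand, mm10) stood at 281.3 and 292.6 CPM in the 0h libraries, 255.2 and 269.4 in those of 6h, 236.3 and 235.6 in those of 12h, and 237.6 and 225.3 in those of 24h. Both later libraries lay below both 0h libraries at each time, and most of the fall was present by 12h. The log2 fold change was -0.13 ± 0.04 (SE; edgeR adjusted p = 0.029) at 6h, -0.28 ± 0.04 (adjusted p = 1.2e-06) at 12h and -0.31 ± 0.04 (adjusted p = 1.3e-07) at 24h. From 6h to 12h it was -0.15 ± 0.04 (edgeR adjusted p = 0.0084). The call at 6h was lost in 6 of 17 alternatives, among them those that leave out 0h replicate 1 (adjusted p = 0.0511), 0h replicate 2 (0.285) or 6h replicate 1 (0.201). The step from 6h to 12h was no longer called when 6h replicate 2 (0.0911), 12h replicate 1 (0.0616) or 12h replicate 2 (0.0834) was left out. On the opposite strand Mrnip overlaps 580 exonic bases of Sqstm1, 17.28% of its exons. Mrnip's own counts reached at most 1.99% of those of Sqstm1, and the strand setting of the counting is not given in the sources used here.

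Nbr1 (ENSMUSG00000017119, chr11:101552149-101581951, plus strand), the other ubiquitin-binding receptor here, stood at 92.1 and 89.0 CPM in the 0h libraries, 93.3 and 87.4 in those of 6h, 88.6 and 89.2 in those of 12h, and 82.0 and 87.4 in those of 24h. The libraries of 0h overlapped those of 6h and 12h and lay above those of 24h. At 24h the log2 fold change was -0.10 ± 0.05 (SE; edgeR adjusted p = 0.11). It was called only without 24h replicate 2 (-0.15, adjusted p = 0.0475) and under the GC and length correction that centres the mean gene, described below. Within each library, Sqstm1 had 3.05 and 3.29 counts per Nbr1 count at 0h and 2.90 and 2.58 at 24h, so the ratio was lower at 24h in both replicates. A change in this ratio was not tested.

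In the GABARAP subfamily, whose members act late in closing the autophagosome and in its fusion with the lysosome, Gabarapl1 fell at all 3 times. Gabarapl1 (ENSMUSG00000030161, chr6:129533160-129542346, plus strand) stood at 60.1 and 60.3 CPM in the 0h libraries, 48.7 and 49.7 in those of 6h, 45.6 and 47.2 in those of 12h, and 41.8 and 42.7 in those of 24h. No libraries of different times overlapped, and each later time was lower than the one before. The log2 fold change was -0.29 ± 0.06 (SE; edgeR adjusted p = 0.00022) at 6h, -0.38 ± 0.06 (adjusted p = 1.2e-06) at 12h and -0.51 ± 0.06 (adjusted p = 1.6e-09) at 24h. These calls held in all 17 alternatives other than the fold of 1.5, with a range at 24h of -0.58 to -0.43. The steps from 6h to 12h (-0.09, adjusted p = 0.31) and from 12h to 24h (-0.14, adjusted p = 0.16) were not called. The transcript 1700101I11Rik overlaps 570 exonic bases of Gabarapl1 on the opposite strand, 28.32% of its exons, and had at most 0.973% as many counts.

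Gabarap (ENSMUSG00000018567, chr11:69991143-69994951, plus strand) stood at 149.7 and 161.1 CPM in the 0h libraries, 138.0 and 146.0 in those of 6h, 145.3 and 143.9 in those of 12h, and 132.8 and 140.8 in those of 24h. Both libraries of each later time lay below both of 0h, by a small margin. The log2 fold change was -0.13 ± 0.05 (SE; edgeR adjusted p = 0.047) at 6h, -0.11 ± 0.05 (adjusted p = 0.065) at 12h and -0.19 ± 0.05 (adjusted p = 0.001) at 24h. The call at 6h was lost in 10 of 17 alternatives, among them leaving out 0h replicate 2 (-0.08), 6h replicate 1 (-0.09), 12h replicate 1 (-0.13) or 12h replicate 2 (-0.13). At 12h, where it was not called, it passed when 0h replicate 1 (-0.16), 6h replicate 1 (-0.11) or 6h replicate 2 (-0.11) was left out. At 24h the call was lost without 0h replicate 2 (-0.14, adjusted p = 0.0619) and under the GC and length correction (-0.05, adjusted p = 0.289).

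Gabarapl2 (ENSMUSG00000031950, chr8:111940703-111953612, plus strand) stood at 33.7 and 29.8 CPM in the 0h libraries, 29.0 and 31.4 in those of 6h, 30.0 and 31.3 in those of 12h, and 31.5 and 26.9 in those of 24h. Its libraries overlapped between 0h and each later time. At 24h the log2 fold change was -0.12 ± 0.08 (SE; edgeR adjusted p = 0.21). It was called without 24h replicate 1 (-0.24, adjusted p = 0.0276).

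In the LC3 subfamily, whose members act in extending the membrane and carry the usual marker of autophagosomes, neither gene was called. Map1lc3b (ENSMUSG00000031812, chr8:121590361-121598760, plus strand) stood at 89.8 and 93.2 CPM in the 0h libraries, 89.3 and 97.3 in those of 6h, 100.3 and 98.4 in those of 12h, and 95.7 and 89.8 in those of 24h. The 12h libraries lay above those of the other times, and those of 6h and 24h overlapped 0h. At 12h the log2 fold change was 0.12 ± 0.05 (SE; edgeR adjusted p = 0.058), and at 24h 0.02 ± 0.05 (adjusted p = 0.78). The 12h value passed in 5 of 17 alternatives, among them leaving out 6h replicate 1 (0.11, adjusted p = 0.0426) or 6h replicate 2 (0.11, adjusted p = 0.0403).

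Map1lc3a (ENSMUSG00000027602, chr2:155276297-155278073, plus strand) was the lowest of the 10 genes, with 5.88 and 5.07 CPM in the 0h libraries, 5.49 and 5.47 in those of 6h, 5.68 and 4.68 in those of 12h, and 4.09 and 4.77 in those of 24h. Both 24h libraries lay below both 0h libraries, and those of 6h and 12h overlapped 0h. These values rest on 108 to 139 counts per library. At 24h the log2 fold change was -0.31 ± 0.16 (SE; edgeR adjusted p = 0.11), and under the GC and length correction it was called, at -0.55 (adjusted p = 0.0046).

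Between genes, levels were compared as CPM per kilobase of the principal transcript. Over the 8 libraries Sqstm1 was at 125 ± 12 (SD), Gabarap at 107 ± 6.25, Map1lc3b at 37.2 ± 1.71, Gabarapl1 at 27.2 ± 3.91, Wipi1 at 21.1 ± 3.54, Nbr1 at 18.5 ± 0.711, Gabarapl2 at 18.2 ± 1.19, Tfeb at 7.27 ± 1.5, Ulk1 at 7.10 ± 0.772 and Map1lc3a at 4.62 ± 0.541. In every library Sqstm1 was above Gabarap, Gabarap above Map1lc3b, Map1lc3b above Gabarapl1, Gabarapl2 above Tfeb and Ulk1 above Map1lc3a. These SDs span 4 time points, and some neighbours changed places over time. Gabarapl1 was above Wipi1 in 6 of 8 libraries: at 0h it was at 33.1 ± 0.0823 (SD, n = 2) and Wipi1 at 16.6 ± 0.88, and at 24h at 23.2 ± 0.376 and Wipi1 at 25.3 ± 0.328. Wipi1 was below Nbr1 at 0h (18.9 ± 0.468), overlapped it at 6h and was above it at 12h and 24h. Tfeb was below Ulk1 at 0h and 6h, overlapped it at 12h and was above it at 24h. Nbr1 was above Gabarapl2 in 4 of 8 libraries, and their replicates overlapped at each time. The order depends on the length used. Per kilobase of all exons joined, Gabarap (78.5 CPM) stood above Sqstm1 (75.7 CPM), and Map1lc3b (12.5 CPM) fell from rank 3 to rank 6.

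Of the summed level of the 5 LC3 and GABARAP genes per length, Gabarap took 55.3% ± 1.6 (SD, n = 2) at 0h and 55.5% ± 1.9 at 24h. Gabarapl1 took 15.9% ± 0.33 at 0h and 12.7% ± 0.11 at 24h, and Map1lc3b 17.4% ± 0.054 and 20.1% ± 1.1. The size of these shares depends on the length used, here that of the principal transcript. Per kilobase of all exons joined, Map1lc3b (mean 12.5 CPM) stood below Gabarapl1 (24.6 CPM). The share of Gabarapl1 was lower, and that of Map1lc3b higher, in both 24h libraries than in both 0h libraries. Ratios of counts within a library do not depend on how libraries are scaled to each other, but are not corrected for the GC content or length of genes. Gabarapl1 to Gabarap was 0.401 and 0.374 at 0h and 0.315 and 0.303 at 24h, and Map1lc3b to Gabarapl1 was 1.5 and 1.55 at 0h and 2.29 and 2.10 at 24h. These ratios did not overlap between the times, and their change was not tested.

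**Figure D3:**
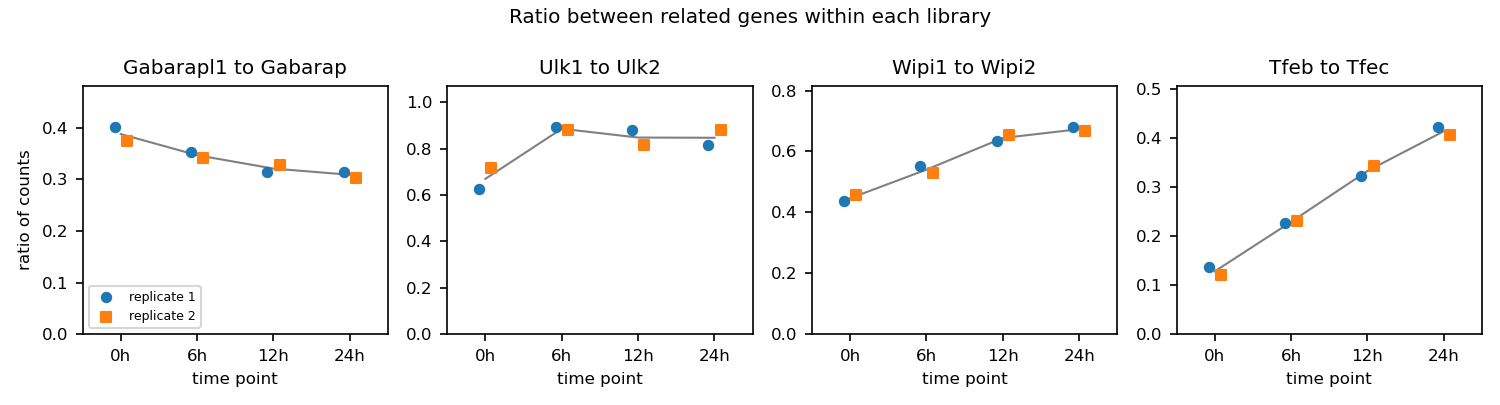
Ratio of counts between related genes within each library (vertical axis, from 0) at each time point, with points for replicates 1 and 2 and a line through their mean. Gabarapl1 to Gabarap goes from a mean of 0.388 at 0h to 0.309 at 24h, Ulk1 to Ulk2 from 0.670 to 0.847, Wipi1 to Wipi2 from 0.446 to 0.673 and Tfeb to Tfec from 0.128 to 0.414. Counts are not corrected for GC content or length.

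Wipi1 (ENSMUSG00000041895, chr11:109573331-109611967, minus strand), the PI3P-binding effector, rose at each time. It stood at 32.7 and 35.3 CPM in the 0h libraries, 40.7 and 39.6 in those of 6h, 46.3 and 47.3 in those of 12h, and 52.4 and 51.4 in those of 24h. No libraries of different times overlapped, and each time was higher than the one before. The log2 fold change was 0.24 ± 0.06 (SE; edgeR adjusted p = 0.0071) at 6h, 0.46 ± 0.06 (adjusted p = 1.9e-07) at 12h and 0.61 ± 0.06 (adjusted p = 1.8e-10) at 24h. From 6h to 12h it was 0.22 ± 0.06 (adjusted p = 0.0072), and from 12h to 24h 0.15 ± 0.06 (adjusted p = 0.12). The 12h and 24h calls held in all 17 alternatives other than the fold of 1.5, with a range at 24h of 0.49 to 0.67. The call at 6h was lost without 0h replicate 1 (0.18, adjusted p = 0.138) and in DESeq2 (0.23, adjusted p = 0.0535). The call from 6h to 12h was lost without 6h replicate 2 (0.20, adjusted p = 0.0605), without 12h replicate 2 (0.21, adjusted p = 0.0885) and in DESeq2 (0.22, adjusted p = 0.0556). Its relative Wipi2, another PI3P effector, was not called at 24h (0.02 ± 0.05, edgeR adjusted p = 0.82), and Wipi1 to Wipi2 was 0.436 and 0.456 at 0h and 0.679 and 0.668 at 24h.

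Wipi1 had the largest F over the time course of the 10 genes, and the 5 genes most like it were sought among 8781 expressed genes. Likeness was the root mean square distance, over the 8 libraries, between log2 CPM values that each had the gene's own 0h mean taken off. The nearest were Zfp598 (0.0353), Ubr2 (0.0357), Vsir (0.0373), Mboat7 (0.0401) and Dop1b (0.0437). The libraries are shared by all genes, so this is a description of these 8 libraries.

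Ulk1 (ENSMUSG00000029512, chr5:110784488-110810097, minus strand), the starting kinase, stood at 29.8 and 32.1 CPM in the 0h libraries, 38.1 and 39.5 in those of 6h, 40.9 and 38.5 in those of 12h, and 36.9 and 40.5 in those of 24h. All 6 later libraries lay above both 0h libraries and overlapped one another. The log2 fold change was 0.33 ± 0.07 (SE; edgeR adjusted p = 0.00064) at 6h, 0.36 ± 0.07 (adjusted p = 5.6e-05) at 12h and 0.32 ± 0.07 (adjusted p = 0.00017) at 24h. The call was lost at each time once counts were corrected for the GC content and length of genes, at 0.17 (adjusted p = 0.0725), 0.15 (0.0581) and 0.12 (0.133). Ulk1 to Ulk2, the related kinase, was 0.624 and 0.716 at 0h and 0.892 and 0.881 at 6h, and Ulk2 itself was not called at 24h (-0.02 ± 0.06, edgeR adjusted p = 0.80).

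Tfeb (ENSMUSG00000023990, chr17:47737030-47792419, plus strand) stood at 12.7 and 10.9 CPM in the 0h libraries, 16.6 and 16.2 in those of 6h, 17.5 and 20.9 in those of 12h, and 20.02 and 18.82 in those of 24h. Both libraries of each later time lay above both 0h libraries, and 12h overlapped 24h. The log2 fold change was 0.48 ± 0.10 (SE; edgeR adjusted p = 0.00078) at 6h, 0.71 ± 0.10 (adjusted p = 4e-07) at 12h and 0.72 ± 0.10 (adjusted p = 1.2e-07) at 24h. The call at 6h was lost without 0h replicate 2 (0.37, adjusted p = 0.0559) and under the GC and length correction (0.21, adjusted p = 0.166). That correction left it called at 12h (0.35, adjusted p = 0.00445) and 24h (0.38, adjusted p = 0.00168). Between 6h and 12h, where it was not called (0.23, adjusted p = 0.076), it passed without 12h replicate 1 (0.35, adjusted p = 0.0275).

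Tfeb and Ulk1 are rich in G and C. Their longest transcripts hold 63.19% and 57.95% GC, more than those of 99.1% and 90.8% of tested genes, whose median is 49.62%. Wipi1 (51.74%), Gabarapl1 (52.75%) and Sqstm1 (54.02%) are nearer the middle, and Map1lc3a holds 63.13%. A second form of the correction also centred the mean gene, under which the median log2 fold change of all tested genes was -0.07, -0.12 and -0.13 at 6h, 12h and 24h. Under it, 7994 of all 14263 genes were called at 24h. Of the 10 genes, 1 was called higher and 6 lower at that time, where Wipi1 was the gene called higher (0.49). Tfeb was then not called at 6h (0.14, adjusted p = 0.354), 12h (0.22, adjusted p = 0.0667) or 24h (0.22, adjusted p = 0.0504), Ulk1 at 24h was at -0.03 and Map1lc3b was called lower at -0.14. Of all calls at 24h, 51.27% were higher as reported, 62.77% with library totals alone and 28.73% with the centred correction.

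**Figure D4:**
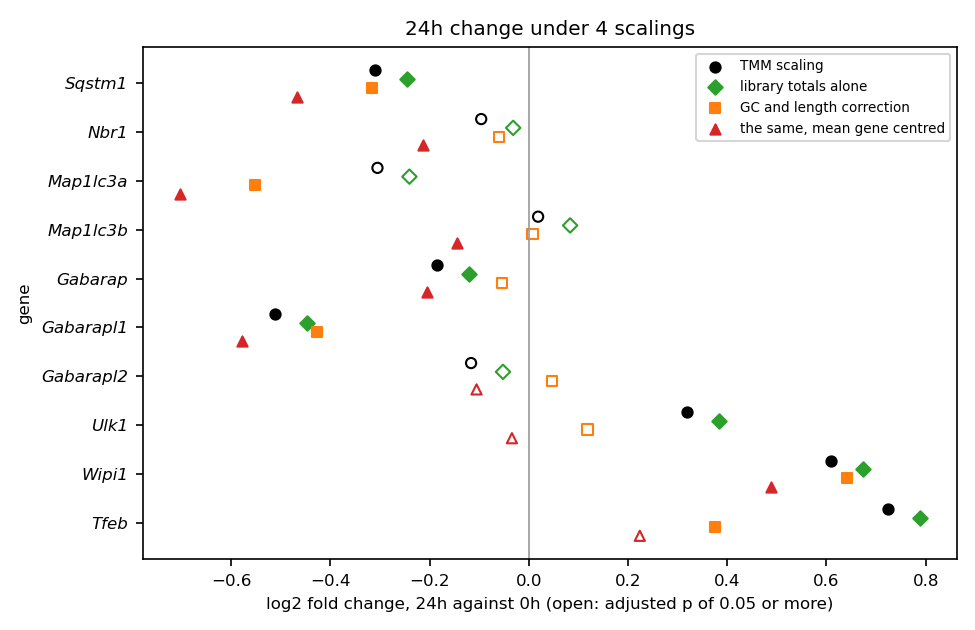
Log2 fold change of each gene at 24h against 0h (horizontal axis) under TMM scaling, library totals alone and the 2 forms of the GC and length correction, with filled points at an adjusted p under 0.05. Wipi1 stays above 0.48 and Gabarapl1 below -0.42 in all 4, while Ulk1 goes from 0.32 to -0.03 and Map1lc3a from -0.31 to -0.70.

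The other genes of the pathway were taken from 7 lists by role. Of 12 genes of the ULK complex and the PI3P kinase complex, edgeR called 0 at 6h, with 3 at an unadjusted p under 0.05 (DESeq2 0, with 2), beside 18.3% of all genes. The centred correction called 5 lower at 6h and the other form 2. Of all 14263 genes these 2 forms called 4040 and 2798 at 6h, with 22.9% and 47% of the calls higher. At 24h, 1 was called higher and 3 lower, beside 50.9% of all genes, 26.1% higher and 24.8% lower. Rubcn, an inhibitor of the PI3P kinase complex, rose by 0.29 ± 0.08 (SE) at 24h, from 22.7 to 27.7 CPM. Atg13 (-0.23 ± 0.06) and Atg101 (-0.17 ± 0.06), partners of ULK1, and Pik3c3 (-0.19 ± 0.06), the lipid kinase itself, fell. All 4 calls were lost in some alternative: Atg13 without 24h replicate 2 (adjusted p = 0.0515), Rubcn without 0h replicate 2 (0.065) or with the centred correction (0.654), Pik3c3 without 0h replicate 2 (0.0771) or 24h replicate 1 (0.0868) and with the GC and length correction (0.0712), and Atg101 without 0h replicate 1 (0.0742) or 24h replicate 1 (0.0555). With library totals alone, Pik3c3 (0.0706) and Atg101 (0.128) were not called either.

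Of 11 genes of the machinery that attaches LC3 to lipid, 2 were called higher and 4 lower at 24h, beside 26.1% and 24.8% of all genes. Atg12, the ubiquitin-like protein joined to ATG5, fell from 204.5 to 155.2 CPM (-0.40 ± 0.04 SE), and so did Atg10, the enzyme that joins it (-0.53 ± 0.12 SE). Atg16l1, which places that complex on the membrane, rose by 0.28 ± 0.06 and Atg4c, a protease of LC3 proteins, by 0.33 ± 0.09. Of 10 genes of membrane supply and other PI3P effectors, 3 were called higher and 1 lower, beside the same shares of all genes. Vmp1, a membrane protein needed for autophagosomes to form, fell from 97.8 to 71.8 CPM (-0.45 ± 0.05). The lipid transporters Atg2a (0.32 ± 0.06) and Atg2b (0.24 ± 0.05) and the scramblase Atg9b (0.55 ± 0.12) rose. With the centred correction none of these 3 rises was called, and Atg2a was at 0.04 under the other form of the correction.

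Of 18 other cargo receptors, 17 were tested, and 4 were called higher and 7 lower at 24h, beside 26.1% and 24.8% of all genes. Calcoco2 was not tested and had 0 counts in all libraries. Bnip3, a receptor for mitochondria, rose from 24.2 ± 1.77 CPM (SD, n = 2) at 0h to 40.0 ± 3.51 CPM at 24h, a log2 fold change of 0.73 ± 0.07 (SE; edgeR adjusted p = 2.1e-10). Tax1bp1, a ubiquitin-binding receptor like Sqstm1, fell from 521.0 ± 0.139 to 401.9 ± 14.6 CPM (-0.37 ± 0.04, edgeR adjusted p = 2.5e-09), and Sec62, a receptor for the endoplasmic reticulum, from 143.9 to 116.2 CPM (-0.31 ± 0.05). Wdfy3, a scaffold for protein aggregates, rose by 0.25 ± 0.05, and was at -0.01 with the centred correction.

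Of 14 genes of fusion with the lysosome, 4 were called higher and 6 lower at 24h, beside 26.1% and 24.8% of all genes. The SNARE proteins Vamp8 (81.5 to 53.5 CPM, -0.60 ± 0.06 SE) and Ykt6 (-0.29 ± 0.05) and the small GTPase Rab7 (-0.37 ± 0.04) fell, and Vps16, a subunit of the HOPS tether, rose by 0.29 ± 0.06. Of 29 lysosome genes of the CLEAR network, the known targets of TFEB, 2 were called higher and 11 lower at 24h, beside the same shares. At 6h 0 were higher and 7 lower, 24.1% of the list beside 18.3% of all genes, of which 8.58% lower. That count was 2 higher and 4 lower with library totals alone, 0 and 12 with the GC and length correction, and 0 and 18 with the centred correction. Of all 14263 genes these called 2463, 2798 and 4040 at 6h, with 69.91%, 47% and 22.9% of the calls higher. Cd63, a lysosome membrane protein, fell from 523.8 to 331.2 CPM (-0.66 ± 0.04 SE), and the enzymes Gusb (-0.35 ± 0.04) and Ctsz (-0.31 ± 0.04) and the proton pump subunit Atp6v0a1 (-0.43 ± 0.06) fell as well. With library totals alone 5 of the 29 were called higher and 9 lower at 24h, and with the centred correction 0 higher and 22 lower. Of all 14263 genes these called 7160 and 7994 at 24h, with 62.77% and 28.73% of the calls higher.

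Of 21 relatives and regulators of TFEB, 20 were tested, and Rragd, with 36 counts in all, was not. At 24h 4 were called higher and 10 lower, beside 26.1% and 24.8% of all genes. Tfec, a relative of TFEB, fell from 91.8 ± 1.47 CPM (SD, n = 2) at 0h to 47.0 ± 0.787 CPM at 24h, to 0.512 of its level (log2 fold change -0.97 ± 0.06 SE; edgeR adjusted p = 4.1e-17). Tfeb to Tfec was 0.136 and 0.120 at 0h and 0.422 and 0.406 at 24h. Tfe3, another relative, was not called (0.04 ± 0.07, adjusted p = 0.62). Mitf, a relative at a low level, was called higher (3.19 to 4.70 CPM, 0.55 ± 0.18, edgeR adjusted p = 0.0099). Sesn2 (58.4 to 111.5 CPM, 0.93 ± 0.05 SE) and Ddit4 (30.9 to 49.4 CPM, 0.68 ± 0.07), which restrain mTORC1, rose. Of the relatives of Sesn2, Sesn1 was called lower (39.0 to 28.3 CPM, -0.46 ± 0.07) and Sesn3 higher (5.36 to 7.04 CPM, 0.39 ± 0.15). Lamtor4, part of the Ragulator complex that holds mTORC1 on the lysosome, fell (140.1 to 102.3 CPM, -0.45 ± 0.05). Against a fold of 1.5 at 24h, Tfec and Sesn2 were called among these 20 genes, beside 6.68% of all genes.

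**Figure D5:**
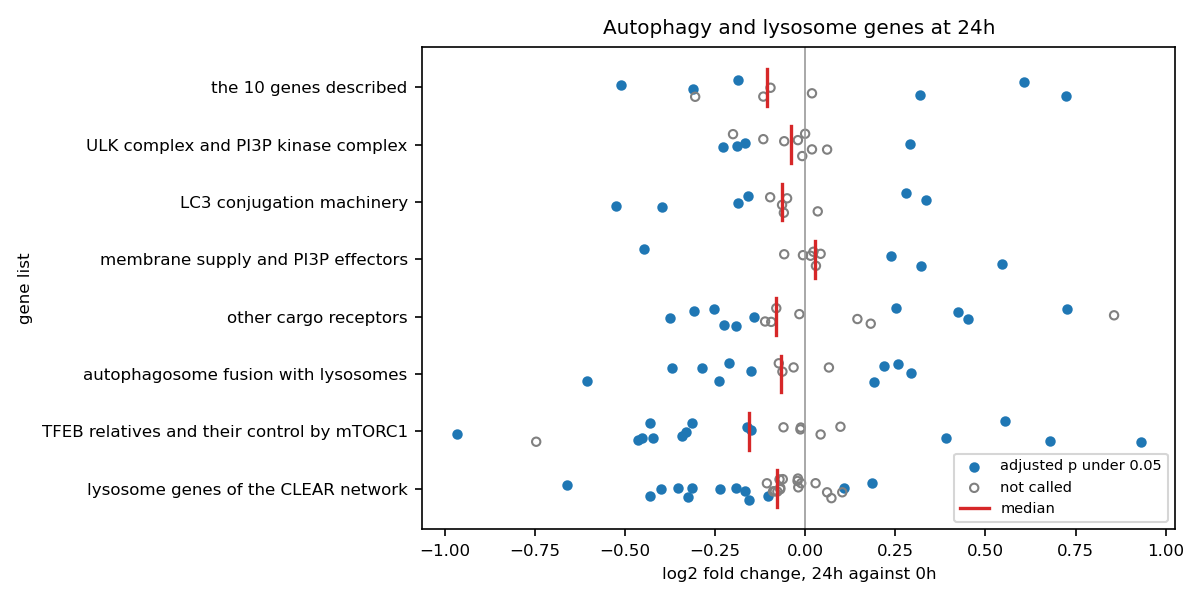
Log2 fold change at 24h against 0h (horizontal axis) of the 10 genes described and of the tested genes of the 7 other lists, with filled points at an adjusted p under 0.05 and a red line at each list's median. Medians lie between -0.15 for TFEB relatives and their control by mTORC1 and 0.03 for membrane supply, where the median of all genes is 0.0173.

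The medians of these lists at 24h lay on either side of 0: -0.04 for the ULK and PI3P kinase complexes, -0.06 for conjugation, 0.03 for membrane supply, -0.08 for other receptors, -0.07 for fusion, -0.15 for TFEB relatives and -0.08 for CLEAR lysosome genes. With library totals alone the first was at 0.03 and conjugation at 0.0, and with the GC and length correction conjugation was at 0.01. With the centred correction all 7 were negative, from -0.31 for TFEB relatives to -0.13 for membrane supply, where the median of all genes was -0.13. The same correction called 0 higher and 9 lower of the ULK and PI3P kinase complexes, 2 and 4 for conjugation, 0 and 4 for membrane supply, 2 and 9 for other receptors, 1 and 8 for fusion, 3 and 14 for TFEB relatives. Of all 14263 genes it called 7994 at 24h, and only 28.73% of those calls were higher. The share of genes called at 24h was 33.3% for the ULK and PI3P kinase complexes, 54.5% for conjugation, 40% for membrane supply, 64.7% for other receptors, 71.4% for fusion, 70% for TFEB relatives and 44.8% for CLEAR lysosome genes, beside 50.9% of all genes.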

How the data were processed

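RNA-seq was measured in 8 libraries of sorted leukaemia cells at 0h, 6h, 12h and 24h, 2 per time. The authors deposited 1 table of unnormalised read counts per library. Tools named are HTSeq 2.0.3, SAMtools 1.3 and STAR, with build mm10, per the submitters' processing notes. Neither annotation release nor strand setting is given in the sources used here. Rows that name no gene were left out, with 5.25% to 9.27% of fragments in no feature. Symbols and coordinates came from GENCODE M21, for 46488 of 47069 gene IDs.

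edgeR 4.0.16 (R 4.3.3) fitted all libraries in 1 quasi-likelihood model after filterByExpr and TMM scaling, with 4 residual degrees of freedom. A prior worth 32.09 degrees of freedom drew the spread of each gene towards that of all genes. P-values are two-sided and adjusted by Benjamini-Hochberg over 14263 genes, with calls under 0.05. The SE is the absolute log2 fold change divided by the square root of F. CPM are TMM scaled. Replicates of a time differed by more than counting noise (chi-square per degree of freedom 1.89 to 4.08), and none were identical. Alternatives were DESeq2 1.42.0, its size factors, library totals alone, no filter, a stricter filter, a replicate block, the 4 libraries of a comparison, a fold of 1.5, leaving out each library, and 2 corrections for GC content and length (known for 14212 genes). The fit was tested on simulated counts.

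The 10 genes, the lists and the alternatives were chosen with earlier results of these data known. All 10 genes are named, with up to 4 genes of each other list that have the smallest adjusted p at 24h, and the 5 genes most like the member with the largest F. Ulk2, Wipi2 and Tfe3 are named beyond that rule, as relatives used in ratios. So are Sesn1, Sesn3 and Mitf, as relatives of named genes, without a check of each in the alternatives. Not every cell type marker examined is reported here.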

Additional observations from a re-analysis of the deposited data

How the results depend on the processing

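Outside the test against a fold of 1.5, which called 0 of the 10 genes in the comparisons of 6h, 12h and 24h with 0h and of 12h with 6h, 7 of 19 called values of the 10 genes held in all 17 alternatives: Gabarapl1 at 6h, 12h and 24h, and Sqstm1 and Wipi1 at 12h and 24h. Of 850 recomputed values 793 kept their side of the threshold, 36 lost and 19 gained a call. The 793 include uncalled values that changed sign and stayed uncalled, such as Gabarapl2 at 24h with the GC and length correction (-0.12 to 0.05). A change of sign with a call before or after it was seen for 2 values. They were Map1lc3b (-0.14) and Ulk1 (-0.034) at 24h with the centred GC and length correction. Of 28 other genes named by their adjusted p at 24h, 20 held throughout, and Atg2a (-0.11) and Wdfy3 (-0.0096) reversed with that correction. The cause was not tested.

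At 6h, 1 gene instead of 3 was called lower with library totals alone, without a filter and in the fit of 4 libraries, and 1 instead of 3 higher with either form of the GC and length correction. The centred form called 1 higher and 5 lower at 12h, and 1 higher and 6 lower at 24h. Of all genes it called 4040 instead of 2613 at 6h, 7272 instead of 6229 at 12h and 7994 instead of 7257 at 24h. Of those calls, 22.9%, 26.82% and 28.73% were higher. From 6h to 12h, 2 genes were called higher with library totals alone and 0 in DESeq2. DESeq2 called 1570 of all genes at 6h, 1477 instead of 2947 from 6h to 12h, and 416 instead of 921 from 12h to 24h. Against a fold of 1.5, 213, 600 and 953 of all genes were called at 6h, 12h and 24h, 85 from 6h to 12h and 41 from 12h to 24h.

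Leaving out each library in turn gave 2 to 3 higher and 1 to 3 lower calls for 6h, 3 to 4 higher and 2 to 3 lower for 12h, 3 higher and 2 to 4 lower for 24h, and 0 to 2 higher and 0 to 1 lower from 6h to 12h. Over all genes it gave 1319 to 2715, 4627 to 6627 and 5722 to 7589 calls at these times, 1296 to 3061 from 6h to 12h and 373 to 1256 from 12h to 24h. A library left alone at its time was assumed to vary like the others.

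Over all genes tested, deviations of same-numbered replicates correlated at -0.0171 to 0.0211 between times, so no pairing by number was seen. A pairing that acts on few genes would not show in these values. With the replicate block, calls among the 10 genes were 3 up and 3 down for 6h, 3 up and 2 down for 12h, and 3 up and 3 down for 24h, beside 2495, 6116 and 7160 calls over all genes. Map1lc3a, with 108 to 139 counts per library, had the largest SE of the 10 genes at 24h (0.16).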
